A study of Mus musculus with 13 samples.

Results

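Interferon-stimulated genes are the genes that cells switch on when they sense an interferon. Here 34 of them were followed in the olfactory bulb of mice exposed to fine particulate matter (PM2.5, airborne particles small enough to reach the deep lung). They were taken from the deposited gene table by their symbols, all 34 of 34 were found among its 34745 genes, and all 34 were among the 17467 genes that passed the filter on low counts. By role they were the transcription factors Irf1, Irf7, Irf9 and Stat2, the RNA-binding Ifit1, Ifit2, Ifit3 and Ifit3b, and the oligoadenylate synthetase family genes Oas1a, Oas2 and Oasl2. They also held the dynamin-like Mx1 and Mx2, the membrane-acting Bst2, Ifitm2, Ifitm3 and Rsad2, the ISG15 system (Isg15, Usp18, Herc6, Trim25), the RNA sensor Ifih1, and the effectors Ifi27, Ifi44, Ifi35, Xaf1, Rtp4, Parp14 and Samd9l. These 29 are called type I-like here. The other 5 are GTPases of the Gbp and Irg families (Gbp2, Gbp3, Gbp7, Igtp, Irgm1) and are called gamma-like. The names follow the interferon most associated with each group and do not mean that a gene answers to that interferon alone.

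The study measured RNA of the olfactory bulb of wild type C57BL/6 mice, aged 7 to 8 weeks per the labels, in 13 samples with 1 library each. A 1st set held 4 samples of mice with no treatment and 3 of mice given PM2.5 at 3 mg/kg, and a 2nd set held 3 samples with no treatment and 3 at 10 mg/kg, both doses labelled "/3 day". The sources used here give neither the route, nor the reading of "/3 day", nor what separates the sets. The comparison asked of each dose is how the exposed mice differ from the unexposed mice of the same set. Dose and set coincide, so a difference between the doses cannot be told apart from a difference between the sets. The labels number the samples within a group and do not say whether each came from its own mouse, so each p-value reflects only how far these samples spread, which may be partly technical.

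Type I interferons (interferon-alpha and interferon-beta) signal through the receptor of Ifnar1 and Ifnar2 to a complex that holds STAT2 and IRF9. That complex binds a promoter element called the interferon-stimulated response element (ISRE). Interferon-gamma signals through Ifngr1 and Ifngr2 to a promoter element called the gamma-activated site (GAS), and it induces IRF1, which in turn binds ISRE-like sequence. In the olfactory bulb, which receives nerve fibres directly from the nose, interferon-stimulated genes are known for their part in defence against viruses that enter along this route.

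Total counts per library were 13.03 to 14.1 M in the 1st-set controls, 14.3 to 14.7 M at 3 mg/kg, 15.4 to 26.99 M in the 2nd-set controls and 20.2 to 25.5 M at 10 mg/kg. Mitral and tufted cell markers of the bulb summed to 2093 to 2609 CPM (counts scaled to a common library total) over the 13 libraries, as fits the labelled tissue. The series text describes male mice, but the 7 libraries of the 1st set held Xist, which is transcribed from the inactive X, at 2245 to 2712 CPM and 4 Y-linked genes at a summed 0 to 0.210 CPM. The 6 libraries of the 2nd set held 0.0992 to 0.555 and 177 to 230 CPM. Expression of sex-linked genes thus differed between the sets and not between the groups within a set, and the 1st set goes against its label.

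Stretches around matches to either promoter element are given below. They cover the 5 gamma-like members and 8 type I-like members picked among those with a match. They are RefSeq sequence (GRCm38.p6) on the gene's own strand, 5′ to 3′, and capitals mark matches. The ISRE was searched as GAAANNGAAA and the GAS as TTCNNNGAA, on both strands, in windows from 250 bases before to 50 after each RefSeq gene start. The stretches lie at chr3:142620594-142620623 (+), chr3:142559946-142560025 (+), chr3:142530221-142530300 (+), chr11:58199476-58199555 (+) and chr11:48871428-48871457 (-) for the gamma-like members. For the type I-like members they lie at chr4:156200846-156200925 (-), chr19:34640759-34640838 (+), chr19:34583355-34583434 (+), chr19:34607751-34607830 (+), chr12:26456528-26456607 (-), chr7:140955988-140956067 (-), chr7:141010715-141010744 (-) and chr11:53769888-53769967 (+). Those of Gbp2, Irgm1 and Ifitm3 fall within an annotated exon of some transcript and are kept to 30 bases, and the other stretches are promoter sequence of 80 bases outside annotated exons.
Gbp2: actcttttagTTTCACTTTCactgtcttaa
Gbp3: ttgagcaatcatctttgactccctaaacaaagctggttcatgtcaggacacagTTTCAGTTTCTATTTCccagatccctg
Gbp7: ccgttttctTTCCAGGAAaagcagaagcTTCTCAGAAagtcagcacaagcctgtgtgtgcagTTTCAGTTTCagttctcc
Igtp: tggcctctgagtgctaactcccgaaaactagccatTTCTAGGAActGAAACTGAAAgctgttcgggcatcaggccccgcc
Irgm1: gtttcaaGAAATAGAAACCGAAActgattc
Isg15: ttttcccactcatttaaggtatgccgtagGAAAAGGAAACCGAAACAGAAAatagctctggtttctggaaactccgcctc
Ifit1: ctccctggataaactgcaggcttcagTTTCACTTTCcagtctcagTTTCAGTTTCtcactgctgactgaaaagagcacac
Ifit3: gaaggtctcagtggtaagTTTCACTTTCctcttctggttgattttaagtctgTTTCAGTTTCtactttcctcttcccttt
Ifit3b: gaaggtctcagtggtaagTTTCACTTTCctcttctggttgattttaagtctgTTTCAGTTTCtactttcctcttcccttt
Rsad2: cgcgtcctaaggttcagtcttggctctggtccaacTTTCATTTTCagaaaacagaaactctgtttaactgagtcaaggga
Ifitm2: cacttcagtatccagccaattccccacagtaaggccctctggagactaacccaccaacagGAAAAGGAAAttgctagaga
Ifitm3: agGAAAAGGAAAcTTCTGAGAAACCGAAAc
Irf1: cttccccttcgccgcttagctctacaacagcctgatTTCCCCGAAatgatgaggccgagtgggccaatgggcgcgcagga

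Promoter windows were matched for 27 of the 34 members. An ISRE match lay in the window of 16 of these 27 genes (59.3%), against 3.99% of all 27025 genes with a window of the same length. A GAS match lay in 8 of 27 (29.6%), against 9.55% of all genes. All 5 gamma-like members held an ISRE match and 2 of them, Gbp7 and Igtp, also a GAS match, while 11 of 22 matched type I-like members held an ISRE match and 6 a GAS match. In the Igtp stretch both stand next to each other, in Isg15 the capitals run together because ISRE matches overlap, and Irf1 shows a GAS match alone. The Ifit3 and Ifit3b stretches are identical in 80 of 80 bases, and these neighbouring genes also share much of their transcripts, as described further on. A match describes the letters only and is no evidence of binding in these samples.

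At 10 mg/kg, 4 members rose against the 2nd-set controls and none fell: the GTPase gene Gbp2 (3.22-fold), the membrane restriction factor genes Ifitm2 (2.37-fold) and Ifitm3 (2.13-fold), and Parp14 (1.81-fold), which encodes an ADP-ribosyltransferase. These calls are from edgeR's quasi-likelihood test with Benjamini-Hochberg adjustment over all 17467 genes, at an adjusted p of 0.05. Of all genes tested, 0.521% passed higher and 0.120% lower. The fold change of 33 of 34 members was above 0, against 47.2% of all genes, and the median log2 fold change of the members was 0.61, against -0.01 for all genes. At an unadjusted p of 0.05, 18 members were higher and none lower, where 5.75% of all genes were higher and 3.89% lower. In 16 members each 10 mg/kg library stood above each control library of the set, a pattern that 6.08% of all genes showed. The members were chosen with results of these data known, so these counts are a description and carry no test of the list.

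**Figure D1:**
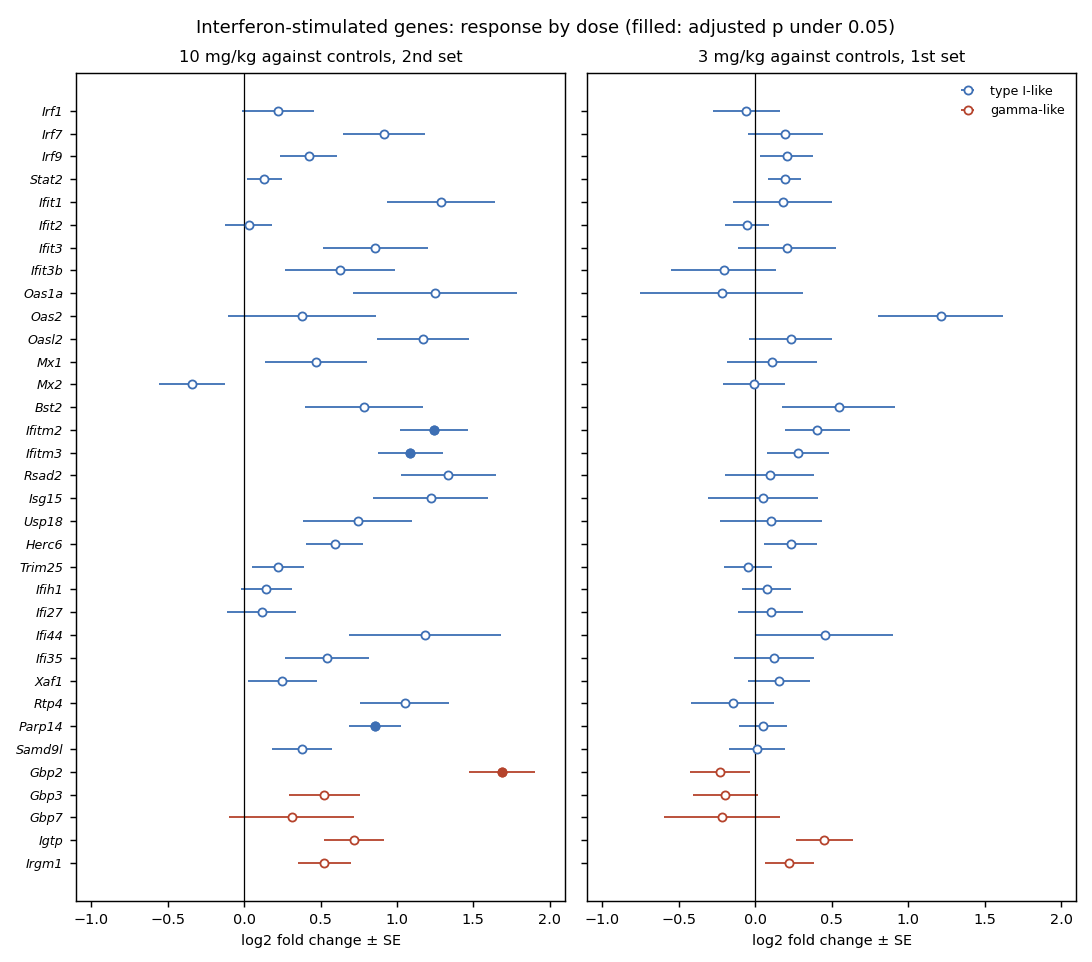
Log2 fold change ± SE of the 34 members (rows) at 10 mg/kg against the 2nd-set controls (left) and at 3 mg/kg against the 1st-set controls (right), from one edgeR fit of 13 libraries; type I-like members are blue, gamma-like members red, and filled points passed at an adjusted p of 0.05. On the left all points but Mx2 lie right of 0 and 4 are filled; on the right the points lie around 0 and none is filled.

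Gbp2 (ENSMUSG00000028270, chr3:142620602-142638008, mm10) encodes a guanylate-binding protein that attacks the membranes of intracellular pathogens. It stood at 2.5, 2.74 and 3.21 CPM in the 2nd-set controls and at 6.85, 10.4 and 10.02 CPM at 10 mg/kg. The lowest exposed library was thus above the highest control of its set. The log2 fold change was 1.69 (SE 0.21, adjusted p = 0.00242 in edgeR). The call held in 22 of 24 alternative analyses, among them each of the 13 that leave out 1 library, where the log2 fold change ran from 1.58 to 1.85. It was lost in a separate fit of each set (edgeR adjusted p = 0.087) and, narrowly, with a replicate block, analyses in which none of the 4 members was called.

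Ifitm2 (ENSMUSG00000060591, chr7:140954839-140955961) and Ifitm3 (ENSMUSG00000025492, chr7:141009586-141010770) lie close together and encode membrane proteins that hinder virus entry. Ifitm2 stood at 3.03, 5.02 and 4.07 CPM in the 2nd-set controls and at 6.65, 11.4 and 10.9 CPM at 10 mg/kg. Ifitm3 stood at 12.2, 11.4 and 7.59 CPM in the controls and at 14.99, 25.7 and 25.7 CPM at 10 mg/kg. Both genes had their lower exposed value in replicate 1, and in neither did the groups overlap. The log2 fold changes were 1.24 (SE 0.22, edgeR adjusted p = 0.0173) and 1.09 (SE 0.21, edgeR adjusted p = 0.0312). Ifitm2 was no longer called without 2nd-set control replicate 3 (edgeR adjusted p = 0.0773) or without 10 mg/kg replicate 2 (0.0612). Ifitm3 kept its call in 7 of 13 analyses without 1 library. It lost it without control replicate 1 or 2 of the 1st set or 3 mg/kg replicate 2 (edgeR adjusted p from 0.0516 to 0.0556), and also without 2nd-set control replicate 3 (0.137), 10 mg/kg replicate 2 (0.104) or 10 mg/kg replicate 3 (0.0866).

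Parp14 (ENSMUSG00000034422, chr16:35832874-35871544) stood at 7.7, 5.45 and 5.55 CPM in the 2nd-set controls and at 10.2, 13.8 and 9.82 CPM at 10 mg/kg. The groups did not overlap, and replicate 2 was the highest. Its log2 fold change was 0.86 (SE 0.17, edgeR adjusted p = 0.0325). This call was the least stable of the 4. It held in 2 of 13 analyses without 1 library, those that drop 10 mg/kg replicate 3 or the 1st control of the 2nd set, and the largest adjusted p was 0.146, on dropping 2nd-set control replicate 3.

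**Figure D2:**
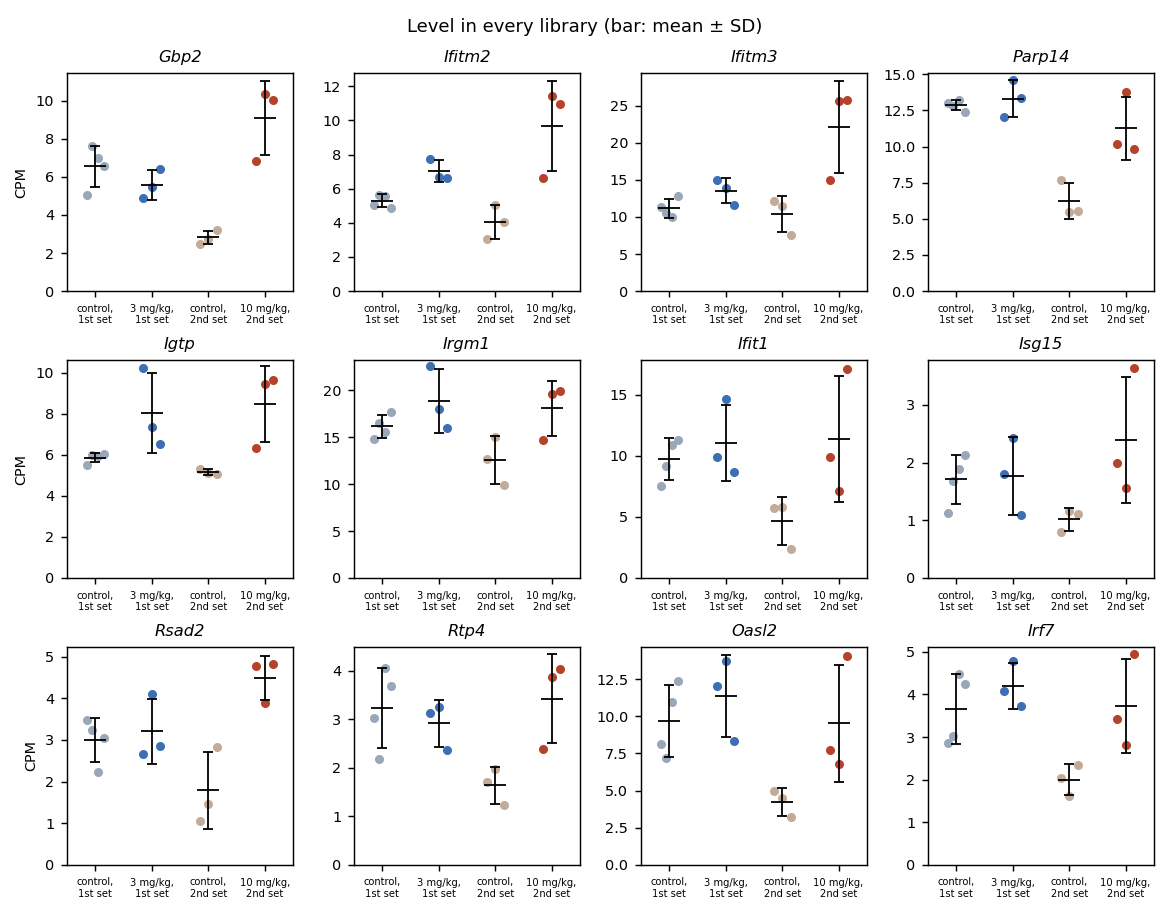
CPM of 12 members (panels) in each of the 13 libraries by group; points are libraries, horizontal bars are means and whiskers are SD, and each vertical axis starts at 0. In the panels of Gbp2, Ifitm2, Ifitm3 and Parp14 the 10 mg/kg points lie above the 2nd-set controls, and for Gbp2 and Parp14 the 2nd-set controls lie below the 1st-set controls.

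The other gamma-like members did not pass at 10 mg/kg. Igtp and Irgm1 encode immunity-related GTPases that act on the vacuoles of intracellular pathogens. Igtp stood at 5.33, 5.1 and 5.06 CPM in the 2nd-set controls and at 6.35, 9.46 and 9.66 CPM at 10 mg/kg, with no overlap (log2 fold change 0.72, SE 0.20, edgeR adjusted p = 0.147). Irgm1 stood at 12.6, 15.03 and 9.93 CPM in the controls and at 14.7, 19.6 and 19.96 CPM at 10 mg/kg, and its groups overlapped (0.52, SE 0.17, edgeR adjusted p = 0.255). Gbp3 and Gbp7 lie beside Gbp2 on chromosome 3. Gbp3 stood at 5.46, 5.76 and 3.83 CPM in the controls and at 7.84, 6.24 and 7.66 CPM at 10 mg/kg, without overlap (0.53, SE 0.23, edgeR adjusted p = 0.470). Gbp7 stood at 9.01, 7.23 and 2.53 CPM against 7.84, 4.48 and 10.9 CPM, values that overlap widely (0.31, SE 0.41, edgeR adjusted p = 0.902). These neighbours of one gene family thus had log2 fold changes from 0.31 to 1.69 in the same libraries, and the differences between them were not tested.

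Of the 29 type I-like members 3 rose at 10 mg/kg, 28 had a fold change above 0, 13 showed no overlap and the median log2 fold change was 0.63. Of the 5 gamma-like members 1 rose, 5 were above 0, 3 showed no overlap and the median was 0.53. Of all genes, 0.521% were called higher, 47.2% were above 0 and 6.08% stood higher without overlap. The type I-like values ran from -0.34 to 1.34 and the gamma-like values from 0.31 to 1.69. The order of the medians was not kept by the means of the members in single libraries, given next, which were higher for the gamma-like members in 3 of 3 exposed libraries. The classes were not compared by a test. Irf1, which interferon-gamma also induces, was counted as type I-like; without it that median was 0.68.

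Averaged over members, log2 (CPM + 0.1) minus the mean of the set's controls was 0.43, 0.50 and 0.94 in the 10 mg/kg libraries for the type I-like members and 0.59, 0.68 and 1.0 for the gamma-like ones. In the 2nd-set controls these means were 0.02, 0.11 and -0.12 and, for the gamma-like members, 0.15, 0.17 and -0.32. All 3 exposed libraries thus stood above all 3 controls in both classes. The third exposed library stood apart from the others. It was the highest of the 6 libraries of the set in 23 of 34 members, while control replicate 3 was the lowest in 20 of 34. The matching shares over all genes were not computed, so these counts are not shown to be particular to the members. Without 10 mg/kg replicate 3, 3 members were called, without control replicate 3, 2 members, and without 10 mg/kg replicate 2, 1 member, Gbp2.

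**Figure D3:**
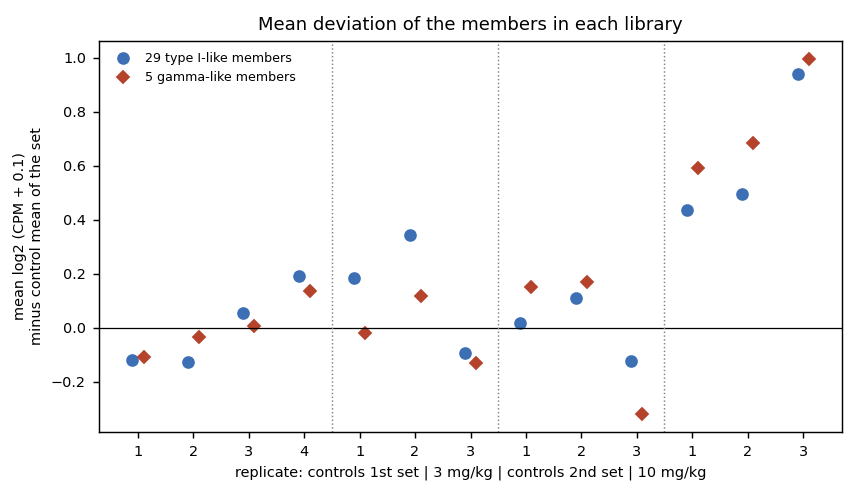
Mean over the members of log2 (CPM + 0.1) minus the mean of the controls of the same set (vertical axis), for each of the 13 libraries (horizontal axis, replicate number within group); circles are the 29 type I-like and diamonds the 5 gamma-like members. The 10 mg/kg libraries lie at 0.43 to 1.0 and the 3 mg/kg libraries at -0.13 to 0.34.

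The transcription factors of the pathway gave no call at 10 mg/kg. Irf7, the factor that amplifies type I interferon production and is itself interferon-induced, stood at 2.04, 1.62 and 2.34 CPM in the 2nd-set controls and at 3.42, 2.82 and 4.95 CPM at 10 mg/kg. It did not overlap between the groups (log2 fold change 0.92, SE 0.27, edgeR adjusted p = 0.179). Irf1 stood at 3.42, 4.37 and 3.83 CPM against 3.97, 5.59 and 4.07 CPM, with overlap (0.22). Stat2 stood at 26.7, 25.9 and 32.8 CPM in the controls and 31.1, 31.8 and 30.7 CPM at 10 mg/kg (0.13), and Irf9, its partner, had a log2 fold change of 0.42. The values of Stat2 and Irf9, parts of the ISRE-binding complex, were below that of Irf7, a target of that complex, and these differences were not tested.

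Among the RNA-binding genes, Ifit1, which holds back translation of foreign RNA, stood at 5.72, 5.84 and 2.41 CPM in the 2nd-set controls and at 9.92, 7.15 and 17.1 CPM at 10 mg/kg. The groups did not overlap, and the exposed libraries spread widely (log2 fold change 1.28, SE 0.35, edgeR adjusted p = 0.161). Ifit3 had a log2 fold change of 0.86 and its near copy Ifit3b of 0.63. Ifit2, a further family member, stood at 0.03 and had a control mean of 22.8 ± 4.42 and an exposed mean of 23.3 ± 1.86 CPM (SD, n = 3 each).

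Of the oligoadenylate synthetase family, whose active members make the messenger that switches on RNase L, Oasl2 stood at 5.0, 4.52 and 3.21 CPM in the 2nd-set controls and at 7.74, 6.79 and 14.1 CPM at 10 mg/kg. It did not overlap (log2 fold change 1.17, SE 0.30, edgeR adjusted p = 0.116). Oas1a had a log2 fold change of 1.25 with the widest error of the members (SE 0.54) at 0.329 to 2.59 CPM in the set. Oas2 stood at 0.395, 0.386 and 0.864 CPM against 0.347, 0.503 and 1.2 CPM, with overlap (0.38). Mx1, whose protein is not functional in C57BL/6, stood at 1.18, 1.2 and 0.802 CPM against 1.69, 1.51 and 1.28 CPM, without overlap (0.47, edgeR adjusted p = 0.753). Mx2 was the 1 member below 0 (-0.34, edgeR adjusted p = 0.710).

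Rsad2, which encodes viperin, an enzyme that makes a chain-terminating nucleotide, came closest to the threshold of the members not called. It stood at 1.05, 1.47 and 2.84 CPM in the 2nd-set controls and at 4.76, 3.87 and 4.83 CPM at 10 mg/kg, without overlap. Its log2 fold change was 1.34 (SE 0.31, edgeR adjusted p = 0.0727). Bst2, or tetherin, which holds budding virus at the cell surface, had a log2 fold change of 0.78. With Ifitm2 and Ifitm3 called, the 4 membrane-acting members had a median of 1.17. Of them, 3 did not overlap, beside 6.08% of all genes that stood higher without overlap.

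In the ISG15 system, Isg15, the ubiquitin-like modifier itself, had a log2 fold change of 1.22 (SE 0.38, edgeR adjusted p = 0.207), and its 0.789 to 1.16 CPM in the 2nd-set controls lay below its 1.56 to 3.63 CPM at 10 mg/kg. Herc6, the main ligase that attaches ISG15 in the mouse, stood at 7.63, 6.14 and 4.5 CPM against 9.43, 8.05 and 10.1 CPM, without overlap (0.59, edgeR adjusted p = 0.221). Trim25, a ligase that acts with the RNA sensor RIG-I, stood at 11.1, 9.85 and 8.45 CPM against 9.03, 13.6 and 11.7 CPM (0.22). Usp18, which removes ISG15 and restrains the type I receptor, had a value of 0.74. No member of this system was called.

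Ifih1, which encodes the RNA sensor MDA5, stood at 8.48, 8.15 and 7.59 CPM against 6.75, 9.66 and 10.4 CPM, with overlap (log2 fold change 0.15). Rtp4, a receptor-transporting protein with antiviral action, stood at 1.71, 1.97 and 1.23 CPM against 2.38, 3.87 and 4.03 CPM, without overlap (1.05, SE 0.29, edgeR adjusted p = 0.152). Xaf1, a partner of the apoptosis inhibitor XIAP, stood at 2.1, 2.55 and 2.9 CPM against 2.63, 3.72 and 2.67 CPM (0.25). The remaining effectors Ifi44, Ifi35, Samd9l and Ifi27 had log2 fold changes of 1.19, 0.54, 0.38 and 0.12, with overlap between the groups in each. Of the 7 effectors Parp14 alone was called.

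At 3 mg/kg no member rose or fell in edgeR, as for all genes of the table, of which 0% were called in either direction. The DESeq2, limma-voom and limma analyses of the same contrast also called no member. The median log2 fold change was 0.11 over the members, against 0.00 over all genes, and 24 of 34 members were above 0, against 50.9% of all genes. At an unadjusted p of 0.05 there were 2 members higher and none lower, where 1.31% of all genes were higher and 1.15% lower. In 3 members (Oas2, Ifitm2 and Igtp) each exposed library stood above each control of the 1st set, against 3.71% of all genes.

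Oas2 had the smallest p of the members at this dose. It stood at 0.907, 0.774, 0.838 and 1.06 CPM in the 1st-set controls and at 2.61, 2.29 and 1.35 CPM at 3 mg/kg (log2 fold change 1.21, SE 0.41, unadjusted p = 0.00986 in edgeR, adjusted p = 1). Its counts are low, with 6 to 39 per library over the 13 libraries. Igtp stood at 5.52, 5.98, 5.94 and 6.02 CPM in the controls and at 10.2, 7.35 and 6.5 CPM at 3 mg/kg (0.45, SE 0.19, unadjusted p = 0.0286 in edgeR, adjusted p = 1). Ifitm2 stood at 5.06, 5.63, 5.59 and 4.89 CPM and at 7.75, 6.66 and 6.64 CPM (0.41, SE 0.21), and Stat2 at 32.2, 30.4, 35.3 and 35.6 CPM and at 38.5, 42.2 and 33.6 CPM (0.19, SE 0.11). Of these 4 genes, Stat2 was the 1 whose groups overlapped.

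At 3 mg/kg the class medians stood on different sides of 0, by small amounts. The type I-like median was 0.11, and the gamma-like median was -0.20, with Gbp2, Gbp3 and Gbp7 at -0.23, -0.20 and -0.22 and Igtp and Irgm1 at 0.45 and 0.22. Gbp2 stood at 5.06, 7.6, 6.99 and 6.59 CPM in the 1st-set controls and at 4.88, 5.48 and 6.44 CPM at 3 mg/kg. Gbp3 stood at 9.3, 6.33, 9.57 and 10.1 CPM and at 8.02, 9.5 and 5.62 CPM, Gbp7 at 11.6, 12.1, 10.8 and 14.6 CPM and at 6.68, 14.2 and 10.8 CPM. Irgm1 stood at 14.8, 16.5, 15.6 and 17.7 CPM and at 22.6, 18.04 and 15.99 CPM. In all 4 genes the groups overlapped. The sign of the gamma-like median rested on 1 library: without 3 mg/kg replicate 1 it was 0.03, and without replicate 3 it was -0.02. The classes were not compared by a test.

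**Figure D4:**
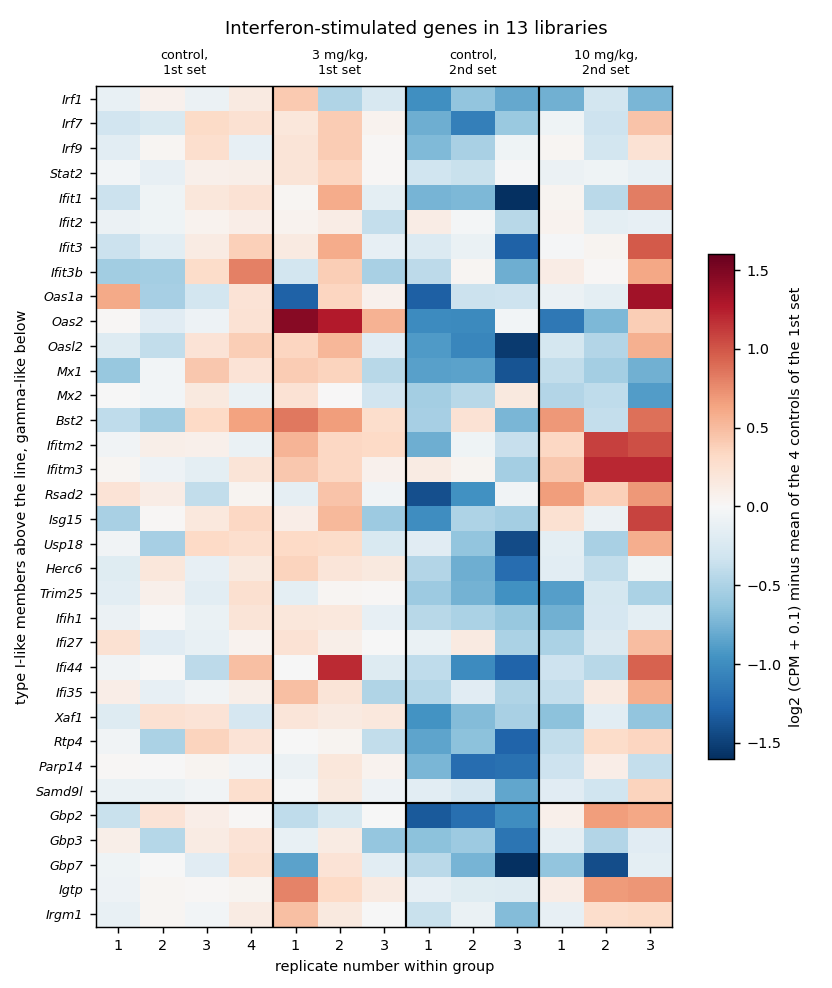
Log2 (CPM + 0.1) of the 34 members (rows; type I-like above the horizontal line, gamma-like below) in the 13 libraries (columns, by group), each minus the mean of the 4 controls of the 1st set; red is higher and blue lower. The 2nd-set controls are blue in most rows, and at 10 mg/kg the rows run from blue to red, most red in replicate 3.

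The difference between the response at 10 mg/kg and that at 3 mg/kg was not called for any member, with 0.00573% of all genes called higher and 0% lower. Gbp2 had the largest difference, 1.92 (SE 0.29, edgeR adjusted p = 0.0864), and passed at 0.0462 without 10 mg/kg replicate 1. At an unadjusted p of 0.05, 10 members were higher at 10 mg/kg and none at 3 mg/kg (3.68% of all genes higher and 2.31% lower). DESeq2 called 1 member and limma none. For the mean of both responses, edgeR called 2 members, Ifitm2 (0.83, SE 0.15, adjusted p = 0.0261) and Gbp2 (0.73, SE 0.14, adjusted p = 0.0388), where 0.424% of all genes were called higher and 0.0687% lower. Gbp2 was higher at 10 mg/kg in 3 of 3 exposed libraries and not at 3 mg/kg, so its mean joins responses of opposite sign. The count of 2 ran from 0 to 4 when 1 library was left out, with 4 without 10 mg/kg replicate 1 and 0 without any 1 of the 4 controls of the 1st set, 3 mg/kg replicate 1 or 3, control replicate 1 or 3 of the 2nd set, or 10 mg/kg replicate 2.

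Unexposed mice of the sets differed in these genes. The log2 difference of the 2nd-set controls to the 1st-set controls was below 0 in 34 of 34 members, where 48.0% of all genes were above 0, with a median of -0.73 against -0.02 for all genes. In edgeR 13 members were lower in the 2nd set and none higher, where 8.74% of all genes were lower and 10.5% higher. The 13 were Irf1, Irf7, Ifit1, Oasl2, Mx1, Herc6, Trim25, Ifih1, Xaf1, Rtp4, Parp14, Gbp2 and Gbp3. In 17 members each 2nd-set control lay below each 1st-set control, a pattern of 14.6% of all genes. Dropping control replicate 3 of the 1st set left 8 of the 13, dropping its replicate 4 left 6, and dropping the deepest 2nd-set control, replicate 2, left 8.

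The largest differences between the controls were those of Gbp2 (-1.22, SE 0.21, edgeR adjusted p = 0.00237), Oasl2 (-1.19), Mx1 (-1.12), Ifit1 (-1.06) and Parp14 (-1.05, SE 0.16, edgeR adjusted p = 0.00147). Oasl2 stood at 8.16, 7.18, 10.97 and 12.4 CPM in the 1st-set controls, Ifit1 at 7.56, 9.22, 10.9 and 11.3 CPM, and Parp14 at 13, 12.8, 13.2 and 12.4 CPM. All these values lie above the 2nd-set controls given above. The 1st-set controls also stood at 6.27, 7.18, 6.43 and 7.58 CPM for Irf1, at 2.87, 3.03, 4.47 and 4.25 CPM for Irf7, and at 1.44, 2.18, 3.07 and 2.62 CPM for Mx1. For Herc6 they were 9.22, 12.03, 9.64 and 11.8 CPM, for Trim25 14.8, 17.6, 14.8 and 19.9 CPM, and for Ifih1 10.9, 11.6, 10.8 and 13.4 CPM. For Xaf1 they were 3.63, 5.0, 4.89 and 3.47 CPM and for Rtp4 3.02, 2.18, 4.05 and 3.68 CPM. In each of these genes the lowest 1st-set control was above the highest control of the 2nd set.

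The comparison at 10 mg/kg and the comparison of the controls share the 2nd-set controls, so they are not independent. The mean of the 10 mg/kg libraries lay above the range of the 4 controls of the 1st set in 10 members, within it in 15 and below it in 9, against 32.5%, 36.4% and 31.1% of all genes. The mean of the 2nd-set controls lay below that range in 30 members and within it in 4, and above it in none, against 31.5%, 36.8% and 31.7% of all genes. The median log2 ratio of the 10 mg/kg mean to the 1st-set control mean was 0.00 over the members. Of the 4 called members, Ifitm2, Ifitm3 and Gbp2 had 10 mg/kg means of 9.67 ± 2.63, 22.1 ± 6.19 and 9.08 ± 1.94 CPM (SD, n = 3). Their 1st-set control means were 5.29 ± 0.372, 11.2 ± 1.24 and 6.56 ± 1.08 CPM (SD, n = 4). Parp14 stood at 11.3 ± 2.2 CPM (SD, n = 3) at 10 mg/kg and at 12.9 ± 0.342 CPM (SD, n = 4) in the 1st-set controls. Set, the sex-linked expression that goes with it and depth cannot be told apart in the comparison of the controls.

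Per unit of transcript length, the deposited FPKM values, which are counts scaled by gene length and library total, place all members low to moderate. In each of the 4 groups the mean level was highest for Ifitm3, at 16.7 FPKM in the 1st-set controls and 15.004 in the 2nd-set controls, followed in differing order by Ifit3 (9.59 and 6.605), Ifi27 (8.93 and 7.78) and Ifitm2 (8.58 and 6.30). Lowest in both control groups were Oas2 (0.111 and 0.0657), Ifi44 (0.187 and 0.0912) and Mx1 (0.450 and 0.197). Over the 13 libraries the gamma-like members ran from 1.21 FPKM for Gbp3 to 2.25 for Irgm1. In counts the members ran from as few as 5 in a library for Oas1a to as many as 799 for Ifit3, so low members such as Oas1a, Oas2 and Ifi44 carry wide errors. In bulk tissue, a change in the number of cells of a type and a change in RNA per cell cannot be told apart.

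Outside the members, 115 rows of the table belong to the interferon pathway by a list of ligands, receptors, signalling genes, sensors, feedback genes and other targets, and 87 of them were tested. The 21 interferon ligand rows were near absent: 16 had 0 counts in all 13 libraries, the highest count in a library was 3, and Ifng had 1 count at most. A count of 0 allows up to 0.111 to 0.230 CPM by the limit of 3 counts per library, which covers counting error only. The 5 receptor genes did not pass at either dose; at 10 mg/kg Ifnar1, Ifnar2, Ifngr1, Ifngr2 and Ifnlr1 had log2 fold changes of 0.02, 0.16, 0.03, 0.25 and -0.17.

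Of these 87 genes 6 rose at 10 mg/kg and none fell, beside 0.521% and 0.120% of all genes, and none was called at 3 mg/kg. Cxcl10, the chemokine that draws activated T cells, stood at 0.395, 0.58 and 0.494 CPM in the 2nd-set controls and at 4.71, 3.98 and 4.79 CPM at 10 mg/kg (log2 fold change 3.15, SE 0.40, edgeR adjusted p = 0.00242). Iigp1, a further Irg GTPase, stood at 2.57, 3.17 and 2.16 CPM and at 5.06, 6.54 and 6.75 CPM (1.2, SE 0.19, edgeR adjusted p = 0.00845). Neither gene overlapped between the groups. One of the rows named Gbp6 (ENSMUSG00000079362; 1.33, edgeR adjusted p = 0.0385), Slfn2 (1.8, 0.0489) and the DNA sensor family gene Ifi204 (2.11, 0.0496) passed more narrowly. Ciita, the master regulator of MHC class II genes, had 0 counts in the 3 controls and 23 in the 3 exposed libraries, at least 6.79-fold higher against a limit of 3 counts over the control group. In the 1st-set controls Ciita stood at 0.831, 0.633, 0.699 and 0.496 CPM, and at 10 mg/kg at 0.347, 0.554 and 0.200 CPM, so unexposed bulbs of the 1st set held it too. The 12 tested Gbp and Irg genes outside the members had a median of 1.19, and the 45 other targets had a median of 0.44. In the controls 20 of the 87 genes were lower in the 2nd set and none higher, beside 8.74% and 10.5% of all genes. Ciita, Iigp1 and that Gbp6 row, 3 of the 6 that rose, are among these 20. Cxcl10 and Ciita overlap genes on the opposite strand (Art3 and Dexi), and the strand setting of the counting is not given.

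Summed markers of 2 cell types that the bulb could hold at its borders or in its blood vessels also stood higher at 10 mg/kg. The summed level of 7 perivascular macrophage markers was 8.02 to 14.8 CPM in the 2nd-set controls and 18.9 to 25.3 CPM at 10 mg/kg, and 18.8 to 26.8 and 22.3 to 29.2 CPM in the controls and exposed libraries of the 1st set. Of these markers 1 of 7 was called, Cd163 (log2 fold change 1.72, edgeR adjusted p = 0.0488). The 7 neutrophil markers summed to 1.64 to 3.63 CPM in the 2nd-set controls and 8.29 to 13.4 CPM at 10 mg/kg, against 2.81 to 4.68 and 4.88 to 6.68 CPM in the 1st set. Of these, 4 were tested and 1, S100a9, was called (2.59, edgeR adjusted p = 0.00845). The sums of other blood-borne lists overlapped between the groups of the 2nd set. Monocyte markers summed to 35.2 to 50.8 CPM in the controls and 46.8 to 52.9 CPM at 10 mg/kg. That sum was mostly Vcan, at 34.7 to 50.4 and 43.7 to 50.5 CPM. Of the rest, Ccr2 (log2 fold change 1.84) and Plac8 overlapped, while Chil3 (2.78) and Ly6c2 were higher without overlap. Ly6c2 stood at 0 CPM in each control and at 0.252 to 0.359 CPM at 10 mg/kg. Of the 5 monocyte markers 3 were tested and none was called. Plasmacytoid dendritic cell markers summed to 2.41 to 4.71 and 2.97 to 4.23 CPM, mostly Siglech, which is also in the microglia list. B cell markers summed to 0.197 to 0.679 and 0.439 to 0.805 CPM. The 11 T and NK cell markers summed to 0.724 to 1.24 and 0.794 to 1.2 CPM, too low for any to be tested, and none of the 11 was at 0 in all 13 libraries. Red blood cell genes summed to 97.2 to 119 CPM in the controls and 114 to 302 CPM at 10 mg/kg, highest in replicate 3. The part of these cells in the change of the members was not tested.

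Of the resident cells, granule cell and interneuron markers stood lower at 10 mg/kg without overlap. They summed to 4049 to 4453 CPM in the 2nd-set controls and 3325 to 3927 CPM at 10 mg/kg, lowest in replicate 3. The median log2 fold change was -0.19, with none of the 6 called. In the 1st set these markers summed to 3393 to 3727 CPM in the controls and 3770 to 3963 CPM at 3 mg/kg, also below the 2nd-set controls. The 8 microglia markers summed to 468 to 479 and 456 to 468 CPM, with none called, but 1 gene, Sall1, made up much of that sum, at 224 to 266 CPM in the controls and 169 to 223 CPM at 10 mg/kg. The other 7 microglia markers summed to 212 to 243.7 CPM in the controls and 244.6 to 287 CPM at 10 mg/kg, which turns the direction. Of these, Cx3cr1 had the largest rise in mean, from 33.5 to 48.3 CPM (log2 fold change 0.53, SE 0.90). Its values ran from 3.19 to 40.2 CPM among the 1st-set controls. P2ry12 and Siglech had log2 fold changes of -0.28 and -0.16, and those of the rest were above 0. The 8 endothelial markers summed to 205 to 268 and 225 to 264 CPM, with none called. Meningeal fibroblast markers summed to 41.4 to 73.2 and 59.0 to 102 CPM in the 2nd set, against 122 to 314 CPM in the 1st set. The lowest macrophage and fibroblast sums of the 2nd set were in control replicate 3, which was also lowest in most members. The part of the resident cells was not tested either.

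Some members share sequence with other genes, and the authors' counting could have split or dropped such reads. Of the stretches of 50 bases in the annotated exons, 57.6% for Oas1a occur in another gene, chiefly Oas1g, 51.2% for Ifit3, 45.0% for Ifit3b and 48.5% for Ifitm2, so the values of these 4 genes are uncertain in that respect. For Ifitm3, Herc6, Rtp4, Gbp7 and Igtp the share was 10.0 to 12.7%. With the strand setting not given, reads of Irf1, Irf7, Oas2, Usp18, Herc6, Ifi35, Rtp4 and Gbp2 may include some from a gene that overlaps on the opposite strand; for Gbp2 this is the microRNA gene Mir6381.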

How the data were processed

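Olfactory bulb RNA was sequenced in 13 libraries (RNeasy extraction, TruSeq Stranded Total RNA, per the labels' protocols). The authors deposited 1 table of 34745 genes with a raw count and an FPKM value for each gene and library; the submitters' processing notes name HISAT2 and the mm10 build, while for the counting program, annotation and strand setting nothing is given in the sources used here. Among 2894 genes with high counts, the deposited FPKM equalled the count divided by the library total and a length per gene within a relative deviation of 5.88e-07, so it carries no scaling beyond depth.

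Counts were tested with the quasi-likelihood F test of edgeR 4.0.16 in R 4.3.3, with TMM factors, filterByExpr and robust dispersion. All 4 groups entered 1 fit, which left 9 residual degrees of freedom. After filtering 17467 genes remained, over all of which p-values were adjusted (Benjamini-Hochberg, called at 0.05). Contrasts were each dose against the controls of its set, their difference and mean, and 2nd-set minus 1st-set controls. An SE is the log2 fold change over the square root of F, and is approximate. CPM values use TMM-adjusted totals. On simulated counts for 17286 genes with the high-dose design, 74 of 100 genes changed by a log2 fold of 1 were called. Of those changed by 2, 95 of 100 were called, and there were 7 false calls. The simulation gave all groups the same spread per gene and changed only genes above 1 CPM. Its figures therefore do not cover the wider spread between 2nd-set replicates given below, nor genes at lower levels.

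The members and lists were chosen with earlier results of these data known. Every member called in a contrast is given in each library of the groups compared, as are the gamma-like members and those with the 8 smallest p at the high and the 4 smallest at the low dose; others are given by range and counts. Isg15 is shown in the plot of levels by choice. Replicates of a group differed by more than sampling noise. The chi-square per gene of library pairs, which also grows with depth, was 5.99 to 9.88 in the 1st-set groups. It was 17.9 to 45.9 in the 2nd-set controls and 13.5 to 33.5 at 10 mg/kg. All groups share 1 estimate of the spread per gene, so p-values at 10 mg/kg may rest on too small a spread. Alternatives were other scaling factors and filters, DESeq2 1.42.0, limma 3.58.1 (voom, and log2 FPKM with a pseudocount of 1 or 0.1), fits within a set, a replicate block and leaving out each library. Gene overlaps and shared sequence come from GENCODE M21, of the same build.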

Additional observations from a re-analysis of the deposited data

Results flagged for a closer look

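In groups of 4 samples, which here means the 1st-set controls, a library was singled out when its gap to the nearest other was large against the range of the group. Chance does this in about 1 in 20 groups, and 34 members were examined. Samd9l stood at 19.9 CPM in control replicate 4, against 15.3 to 15.9 CPM in the other 3 controls. Igtp stood at 5.52 CPM in control replicate 1, against 5.94 to 6.02 CPM in the others. Control replicate 4 was also the highest of the 4 in 19 of 34 members, and the matching share over all genes was not computed.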

How the results depend on the processing

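No member had a called change of sign under an alternative. The count of 4 members higher at 10 mg/kg was 7 in DESeq2, 2 in limma on log2 (FPKM + 1) and 2 on log2 (FPKM + 0.1). It was 0 in a separate fit of each set, with 4 of all genes called higher. There the spread came from fewer samples, all of 1 set. The count was 2 when the deepest library of each 2nd-set group was dropped, an alternative chosen after seeing the data. Apart from the separate fit, the share of all genes called is not given here, so these counts do not rank the response. Leaving out 1 library gave 1 to 4. At 3 mg/kg the count was 0 under every alternative that was run. For the difference of the responses, DESeq2 and the analysis with no filter each called 1 member, and leaving out 1 library gave 0 to 1. For the mean response, in place of 2, the counts were 5 in DESeq2, 0 in limma-voom, 1 on log2 (FPKM + 1), 1 with a filter of 1 CPM in every library and 1 without the deepest pair, and 0 to 4 without 1 library. The count of 13 lower in the 2nd-set controls was 6 to 13 without 1 library. The type I-like median of 0.63 at 10 mg/kg was 0.27 on log2 (FPKM + 1), a scale that understates low genes, and 0.47 to 0.74 without 1 library. The gamma-like median at 3 mg/kg was -0.22 to 0.027 without 1 library and changed sign, to 0.027, without 3 mg/kg replicate 1. Causes of these differences between analyses were not tested. Low members such as Oas1a and Oas2, with as few as 5 and 6 counts in a library, carry wide errors.

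Deviations of same-numbered samples from their group means had r of 0.00, 0.06 and 0.01 in the 1st set and 0.13, -0.15 and -0.34 in the 2nd. For samples with different numbers r ran from -0.06 to 0.06 in the 1st set and from -0.38 to 0.45 in the 2nd. With so few samples these values cannot decide whether the labels' numbers pair the samples. With a replicate block, which leaves 4 residual degrees of freedom, 0 members were called at 10 mg/kg and 0 for the mean response.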
